A study of Mus musculus with 8 samples.

Results

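Imprinted genes are transcribed mainly or only from the copy inherited from 1 parent, because the copies from the egg and the sperm carry different DNA methylation at the regions that control them. Many lie in clusters in which a long noncoding RNA is made from the chromosome copy whose neighbours are silent, as with Kcnq1ot1 over the Kcnq1 cluster and Airn over the Igf2r cluster. Several of their products set embryonic and placental growth, with growth-promoting genes such as Igf2 expressed from the father's copy and growth-restraining genes such as Igf2r, Cdkn1c and Phlda2 from the mother's. The counts described here do not tell the parental copies apart.

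The 10 genes described are H19, Igf2, Igf2r, Kcnq1ot1, Cdkn1c, Phlda2, Peg10, Peg3, Mest and Snrpn. They were chosen by symbol, through the Ensembl identifiers of the count tables, and are 10 of 54446 genes listed. Nuclear RNA depleted of ribosomal RNA was sequenced from C57BL/6 mouse embryonic stem cells in 8 libraries, which form 4 groups of 2: Mettl14 control, Mettl14 conditional knockout (cKO), Mettl3 control and Mettl3 cKO. All of them grew with serum, LIF and the inhibitors CHIR99021 (of GSK3) and PD0325901 (of MEK). METTL3 and METTL14 form the enzyme core that writes N6-methyladenosine (m6A) on RNA, METTL3 being its catalytic subunit. The design text asks how nuclear RNA changes upon each knockout. No label names the Cre driver, the deleted exons, the time after deletion or the number of clones. Since the labels do not tie the 2 libraries of a group to separate cultures, the spread behind each p-value may be no more than technical.

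Total counts ran from 17235889 to 20086128 per library. Mettl14 fell by 0.96 ± 0.07 (SE) on the log2 scale in its knockout and Mettl3 fell by 0.95 ± 0.08 in its own (edgeR, adjusted p = 1.23e-26 and 1.21e-21). The 2 control groups were not alike. Mettl14 itself was 0.99 ± 0.07 higher on the log2 scale in Mettl14 control than in Mettl3 control (edgeR, adjusted p = 1.55e-28). Levels are given in CPM (counts scaled to 1 common library size). Mettl14 had means of 56.6 in Mettl14 control, 28.9 in Mettl14 cKO, 28.3 in Mettl3 control and 29.1 in Mettl3 cKO. Its level in Mettl14 cKO was thus close to that of both Mettl3 groups. Mettl3 had means of 41.9, 42.5, 36.8 and 19.1 in that order of groups. The summed CPM of 14 embryonic stem cell markers was 4209 to 4226 in Mettl14 control and 3196 to 3206 in Mettl14 cKO. It was 1762 to 1778 in Mettl3 control and 1664 to 1675 in Mettl3 cKO. None of the 14 was at 0 in any library. Pou5f1 had means of 558.6, 240.0, 79.4 and 104.0 CPM in that order of groups. Between the controls 13 of the 14 were higher in the Mettl14 line and Utf1 was lower, beside 33.6% and 34.1% of all genes tested. In Mettl14 cKO 12 fell and Tdgf1 rose, beside 22.4% and 18.0%. In Mettl3 cKO 6 fell and 2 rose, Pou5f1 and Lin28a, beside 5.78% and 15.1%. A list of 17 fibroblast markers went opposite to the stem cell sum, with summed CPM of 741 to 742, 1481.4 to 1482.5, 5869 to 6050 and 7059 to 7113 in the same order of groups. Its single value of 0 was Lum in 1 library of Mettl14 control. Col1a1 (means of 269.6, 336.9, 2695.4 and 3285.5 CPM), Col1a2 and Fbln2 made up most of each fibroblast sum. By contrast, Thy1 stayed at 0.948 to 4.22 and Fap at 0.0633 to 0.872 mean CPM. Between the controls 15 of 16 tested were lower in the Mettl14 line, beside 34.1% of all genes tested. Twist1 was higher there by 0.55 ± 0.17 on the log2 scale (edgeR, adjusted p = 0.00384). For 16 primitive endoderm markers the sums were 1142 to 1149, 1770 to 1804, 2485 to 2519 and 2709 to 2728, with Afp, Ttr and Apoa1 at 0 in 1 Mettl14 control library, Ttr and Apoa1 in the other and Ttr in 1 Mettl14 cKO library. That sum was mostly made of the matrix genes Sparc (means of 683.5, 1117.5, 1425.9 and 1621.9 CPM), Col4a1, Lamb1 and Lama1, while the regulators that define the lineage stayed low in every group, with Gata4 at 2.55 to 3.31, Gata6 at 2.43 to 3.53, Sox17 at 0.504 to 1.02 and Foxa2 at 0.0994 to 0.352 mean CPM. For 13 trophectoderm markers they were 299 to 310, 364 to 367, 236 to 246 and 262 to 279, with Prl3d1 or Prl2c2 at 0 in 5 libraries. In bulk RNA, a change in how many cells express a gene and a change in RNA per cell cannot be told apart.

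Of the members, H19 had the highest density of the core m6A motif, and the stretches that hold it are shown first for that reason. H19 (ENSMUSG00000000031, chr7:142575529-142578143 on the minus strand of mm10, a long noncoding RNA) is a maternally expressed RNA downstream of Igf2 and the host of the microRNA gene Mir675. GGACT is the commonest form of the sequence in which m6A is written, and on the transcript strand it occurs 6 times in the 2286 bases of the longest annotated H19 transcript, or 2.62 times per kilobase. Of 18904 tested genes whose longest transcript has at least 1000 bases, 97.1% had fewer per kilobase, and the median was 0.996. The windows below give each occurrence in capitals with 12 bases on either side, read from the mm10 transcript models. Sites 1 to 5 begin in the first of 5 exons and site 6 in the fourth. A match describes the letters and does not show that the base is methylated.
H19 site 1: aggaatgttgaaGGACTgaggggctagct
H19 site 2: gctgcaggtatcGGACTccagagggattt
H19 site 3: actgcggcccagGGACTggtgcggaaagg
H19 site 4: agggcccacagtGGACTtggtacactgta
H19 site 5: ctcgaagagctcGGACTggagactaggcc
H19 site 6: ctttgaatccggGGACTtctttaagtccg

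Sites 3 (chr7:142577133-142577137) and 4 (chr7:142577107-142577111) lie inside the 84 bases annotated as the Mir675 hairpin, an exonic part of H19 (chr7:142577064-142577147). The mature microRNAs cut from that hairpin are given next because no reads were assigned to it. Mir675 had 0 counts in all 8 libraries, in which H19 had up to 803. How reads shared by 2 genes were handled is not stated. Those over the hairpin may have been counted for H19 or dropped. A count of 0 in total RNA libraries says nothing about mature microRNAs, which are shorter than such libraries usually keep. The seed, bases 2 to 8, is in capitals, and the 2 seeds differ. The sequences are those of RefSeq on GRCm38.p6, the assembly of mm10.
mmu-miR-675-5p: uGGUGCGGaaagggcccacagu
mmu-miR-675-3p: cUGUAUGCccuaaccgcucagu

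Among the other members GGACT was less dense. Kcnq1ot1 held 80 in 93092 bases (0.859 per kilobase), which is more per kilobase than in 40.9% of genes. Igf2r had 1.35 per kilobase, Phlda2 1.32, Cdkn1c 1.05, Peg3 1.04, Peg10 0.60, Igf2 0.42 and Mest 0.38. The longest transcript of Snrpn held 0. The transcript of Phlda2 is shorter than the others, with 757 bases and 1 match.

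H19 was abundant in the Mettl14 line, fell in Mettl14 cKO, and was scarce in the Mettl3 line. The level was 51.1 and 50.3 CPM in the 2 Mettl14 control libraries and 27.3 and 29.1 in Mettl14 cKO. In the Mettl3 line it was 1.13 and 1.51 CPM in control and 2.38 and 2.39 in cKO, which rest on 23 and 30 and on 45 and 45 counts. No 2 groups overlapped, in the order Mettl14 control, Mettl14 cKO, Mettl3 cKO, Mettl3 control.

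The log2 fold change of H19 in Mettl14 cKO was -0.84 ± 0.08 (SE, edgeR, adjusted p = 4.92e-19), a 1.79-fold fall. In Mettl3 cKO the RNA rose instead, by 0.85 ± 0.25 (edgeR, adjusted p = 0.00591). The call in Mettl3 cKO was lost without Mettl3 control replicate 1 (log2 fold change 0.69, adjusted p = 0.104) and when only the Mettl3 libraries were fitted (0.82, adjusted p = 0.0514); over all alternatives the edgeR, limma and DESeq2 adjusted p ran from 0.0014 to 0.104. The difference of the 2 changes, Mettl14 minus Mettl3, was -1.70 ± 0.26 (edgeR, adjusted p = 1.16e-08) and kept its call in 15 of 15 alternatives. Between the controls H19 was 5.26 ± 0.13 higher on the log2 scale in the Mettl14 line (edgeR, adjusted p = 4.09e-73), a 38.2-fold difference and the largest of the members.

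**Figure D1:**
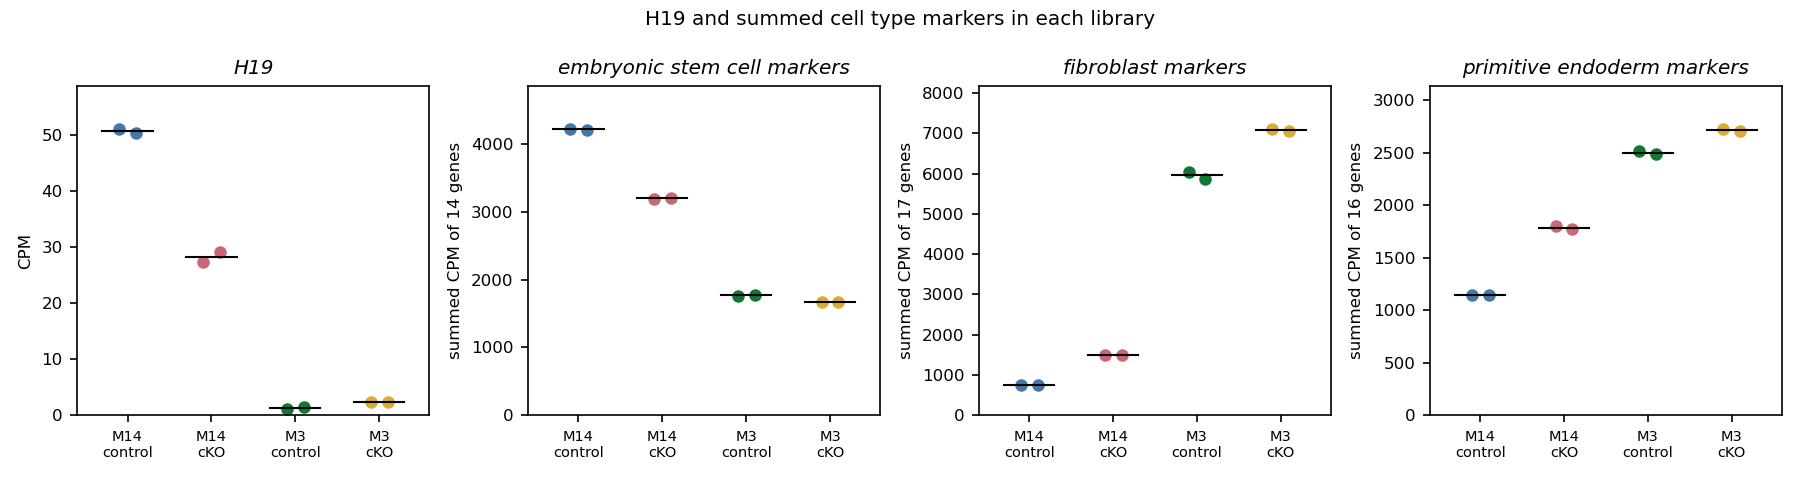
H19 in CPM (first panel) and the summed CPM of embryonic stem cell, fibroblast and primitive endoderm markers (vertical axes from 0) in each library; points are libraries and bars the means of 2. H19 and the stem cell sum are highest in Mettl14 control and low in the Mettl3 line, and the fibroblast sum runs from 741 in Mettl14 control to 7113 in Mettl3 cKO.

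The fibroblast and endoderm sums were higher in Mettl14 cKO than in its control and higher again in the Mettl3 line, so H19 was highest where these sums were lowest, as the plot of H19 beside the marker sums shows. The part of these markers in the H19 values was not tested. The endoderm sum stands mostly for its matrix genes, which did not all move together in Mettl3 cKO. Sparc and Col4a1 rose there by 0.18 and 0.15 on the log2 scale. Lama1 fell by 0.72, with means of 90.3 and 54.8 CPM in Mettl3 control and cKO, and Lamb1 had 343.4 and 330.9. Of the 13 tested endoderm markers 3 were higher and 1 lower in Mettl3 cKO, beside 15.1% and 5.78% of all genes. Their median log2 change was -0.06. In the Mettl3 line H19 and the fibroblast sum were both higher in cKO than in control, but the fibroblast markers did not all move together. Of 16 tested 6 rose and 2 fell, beside 15.1% and 5.78% of all genes. Col1a1 (means of 2695.4 and 3285.5 CPM in control and cKO), Col1a2 (1782.0 and 2134.7) and Fbln2 (695.7 and 882.0) rose, and Acta2 (323.0 and 293.3) and Col3a1 (199.2 and 179.1) fell. The genes whose log2 CPM was most like that of H19 over the 8 libraries, among 11882 named genes, were Rpl41 (Pearson r = 0.9995), Glo1 (0.9989), March7 (0.9987) and Tdrp (0.9986). The points share their libraries, and all 4 genes were higher in the Mettl14 line: Rpl41 had a mean of 376.6 and 328.4 CPM in Mettl14 control and its cKO, and 161.3 and 183.7 in Mettl3 control and cKO.

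Kcnq1ot1 (ENSMUSG00000101609, chr7:143203458-143296549, minus strand, 1 exon) is an unspliced nuclear RNA made antisense to Kcnq1 from the father's copy, on which the neighbouring genes are silenced. It was among the most abundant members, with 1279 and 1262 CPM in Mettl14 control, 1088 and 1076 in the Mettl14 cKO, 1005 and 992 in Mettl3 control and 1198 and 1229 in Mettl3 cKO. No groups overlapped. Kcnq1ot1 fell in Mettl14 cKO by 0.23 ± 0.02 on the log2 scale and rose in Mettl3 cKO by 0.28 ± 0.02 (SE, edgeR, adjusted p = 5.09e-17 and 4.99e-21). These are small changes, of 1.17-fold and 1.21-fold, measured on 19527 to 23107 counts per library.

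The difference of the Kcnq1ot1 changes was -0.51 ± 0.03 (edgeR, adjusted p = 2.82e-30), and Mettl14 control was 0.34 ± 0.02 above Mettl3 control (edgeR, adjusted p = 2.18e-29). All 4 calls held in every alternative run. H19 and Kcnq1ot1 were thus called in opposite directions in the 2 knockouts, both lower in Mettl14 cKO and higher in Mettl3 cKO. Kcnq1, on the opposite strand, had at most 0.957 CPM. The genes most like Kcnq1ot1 over the 8 libraries were Map2k4 (r = 0.9864), Sept9 (0.985), Phf3 (0.9845) and Jmy (0.9772), whose mean levels had the same order of groups: Map2k4 had a mean of 67.8, 56.8, 50.9 and 63.9 CPM in the group order given for Kcnq1ot1.

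**Figure D2:**
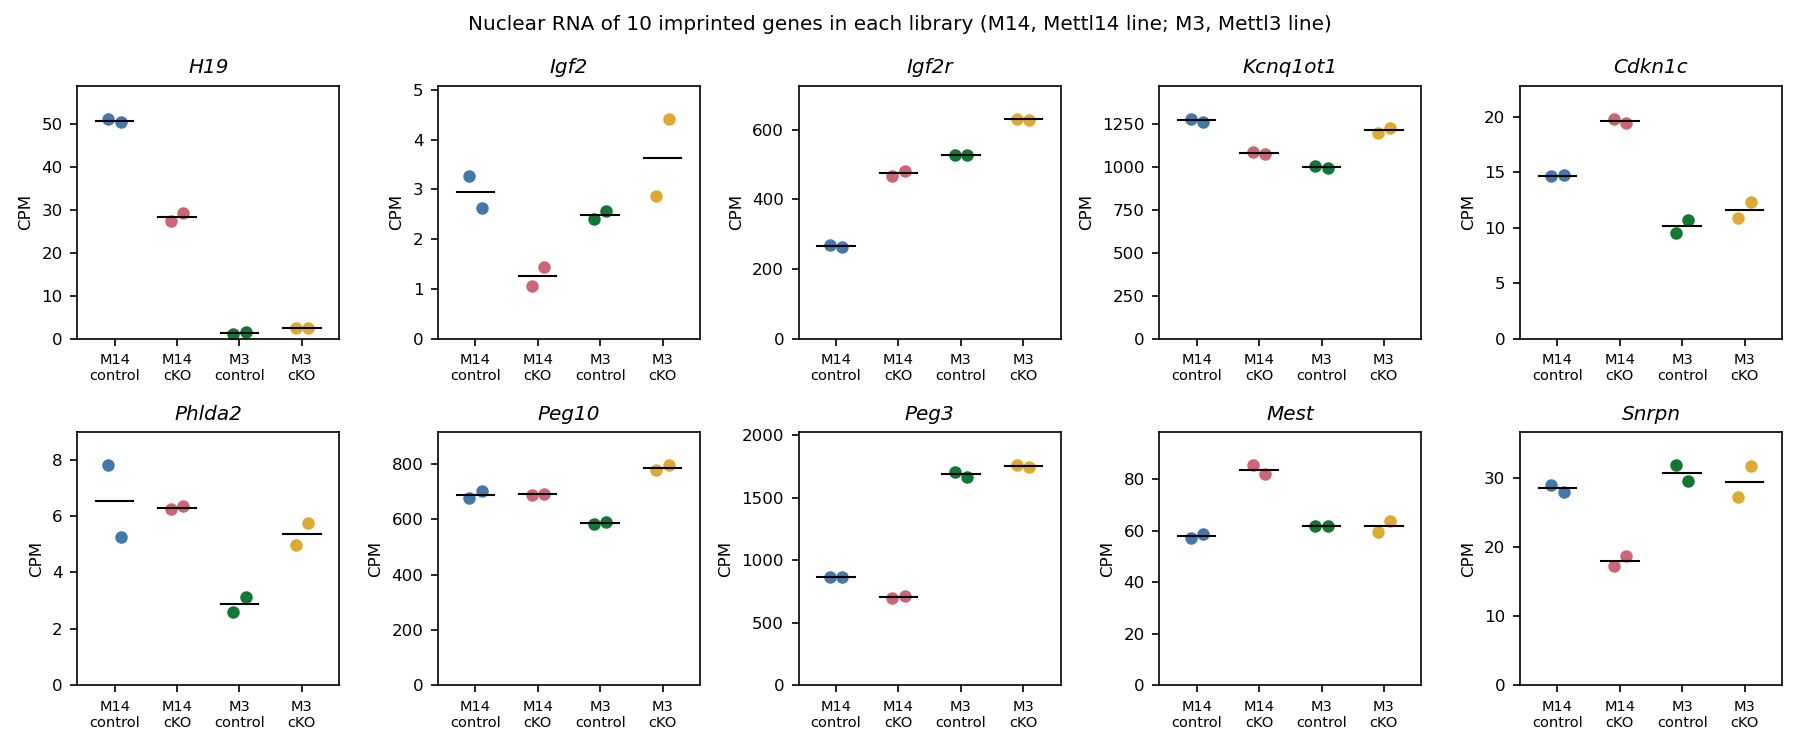
CPM of each of the 10 imprinted genes (vertical axes from 0, a scale per gene) in the 4 groups; points are libraries and bars the means of 2. H19 is near 0 in the Mettl3 line, Igf2r and Peg3 are highest there, and Mest stands apart only in Mettl14 cKO.

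The IGF2 ligand and its clearance receptor moved in opposite directions in Mettl14 cKO as counted. Igf2 (ENSMUSG00000048583, chr7:142650766-142666816, minus strand), the growth factor gene that shares enhancers with H19, had few counts. It had 3.26 and 2.63 CPM in Mettl14 control, 1.06 and 1.44 in the Mettl14 cKO, 2.40 and 2.57 in Mettl3 control and 2.86 and 4.41 in Mettl3 cKO, on 19 to 83 counts. The 2 Mettl14 cKO libraries were the lowest of the 8. Igf2 fell by 1.22 ± 0.29 in Mettl14 cKO on the log2 scale (SE, edgeR, adjusted p = 0.000217), while its value in Mettl3 cKO was 0.55 ± 0.24 and missed the threshold (edgeR, adjusted p = 0.0902). That value depends on which library is left out: without Mettl3 cKO replicate 1 it was 0.87 and called (edgeR, adjusted p = 0.0127), without Mettl3 cKO replicate 2 it was 0.24 (adjusted p = 0.666), and it was also called with no low-count filter (0.65, adjusted p = 0.0439). The difference of the changes was -1.77 ± 0.38 (edgeR, adjusted p = 4.76e-05).

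The fall of Igf2 depends on which annotated gene its reads are counted for. Gm49394, a read-through gene model on the same strand, covers 62.8% of the exonic bases of Igf2 and had 0.575 and 0.815 CPM in Mettl14 control, against 1.50 and 1.29 in Mettl14 cKO. With the reads of both genes added, which was tried after seeing the data, the log2 change of Igf2 in Mettl14 cKO was -0.45 (adjusted p = 0.12; range over all alternatives 9.66e-05 to 0.12) and no longer called, while the difference between the knockouts was -0.98 and kept its call (adjusted p = 0.00938). Igf2os, the antisense transcript over Igf2, rose by 0.48 ± 0.17 in Mettl14 cKO (edgeR, adjusted p = 0.019), from 4.03 and 5.08 to 6.02 and 6.65 CPM. Between the controls Igf2 differed by 0.24, with a 95% interval from -0.26 to 0.74, although H19 beside it differed 38.2-fold.

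Igf2r (ENSMUSG00000023830, chr17:12682406-12769664, minus strand) encodes the receptor that carries IGF2 to the lysosome. It had 267 and 264 CPM in Mettl14 control, 468 and 482 in the Mettl14 cKO, 528 and 526 in Mettl3 control and 631 and 629 in Mettl3 cKO. The 4 groups did not overlap and Mettl14 control was the lowest. Igf2r rose by 0.84 ± 0.03 in Mettl14 cKO and by 0.25 ± 0.03 in Mettl3 cKO on the log2 scale (SE, edgeR, adjusted p = 9.38e-59 and 1.16e-15). It was the 1 member called higher in both knockouts, and kept both calls in all 16 alternatives. Its change was larger in Mettl14 cKO by 0.59 ± 0.04 (edgeR, adjusted p = 9.74e-30). Mettl14 control was 0.99 ± 0.03 below Mettl3 control (edgeR, adjusted p = 2.95e-68).

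Airn, the noncoding RNA that starts inside Igf2r and runs antisense over its promoter, differed between the lines and was not called in either knockout. Its Mettl14 libraries held only 29 to 44 counts. It had 2.11 and 1.82 CPM in Mettl14 control, 1.67 and 2.27 in the Mettl14 cKO, 7.88 and 8.37 in Mettl3 control and 10.9 and 8.24 in Mettl3 cKO. The log2 changes were 0.01 ± 0.27 and 0.23 ± 0.15 in the Mettl14 and Mettl3 knockouts, neither called (edgeR, adjusted p = 0.974 and 0.289), against a difference of -2.05 ± 0.21 between the controls (edgeR, adjusted p = 4.48e-17). Airn overlaps the Igf2r span on the opposite strand by 28354 bases but shares 0 of its exonic bases. The strand setting of the counts is not stated, and whether intronic reads of Igf2r were counted for Airn was not tested.

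Cdkn1c and Phlda2, the growth restrainers of the Kcnq1 cluster, each rose in 1 knockout. Cdkn1c (ENSMUSG00000037664, chr7:143458339-143461050, minus strand) encodes the CDK inhibitor p57. The CPM were 14.7 and 14.7 in Mettl14 control, 19.8 and 19.4 in Mettl14 cKO, 9.50 and 10.7 in Mettl3 control and 10.9 and 12.3 in Mettl3 cKO. Cdkn1c rose by 0.42 ± 0.10 in Mettl14 cKO (SE, edgeR, adjusted p = 0.000374). Its change in Mettl3 cKO was 0.20, with a 95% interval from -0.03 to 0.43 (edgeR, adjusted p = 0.23). Cdkn1c is the 1 member whose changes were not called different between the knockouts (0.22, 95% interval -0.09 to 0.52; edgeR, adjusted p = 0.293).

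Phlda2 (ENSMUSG00000010760, chr7:143501545-143503150, minus strand), a small gene whose product limits placental growth, had 7.80 and 5.27 CPM in Mettl14 control, 6.24 and 6.34 in the Mettl14 cKO, 2.60 and 3.12 in Mettl3 control and 4.98 and 5.74 in Mettl3 cKO. The 2 Mettl14 control libraries lie on either side of Mettl14 cKO. Phlda2 rose by 0.90 ± 0.20 in Mettl3 cKO (SE, edgeR, adjusted p = 0.000169), and its value in Mettl14 cKO was -0.05 (95% interval -0.40 to 0.29; edgeR, adjusted p = 0.848). The difference of -0.96 ± 0.26 was called (edgeR, adjusted p = 0.00217) but not without Mettl14 control replicate 1 (-0.69, adjusted p = 0.0782). Its adjusted p in edgeR, limma and DESeq2 otherwise went down to 0.000101. Kcnq1ot1 and Phlda2 both rose in Mettl3 cKO.

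Of the paternally expressed coding genes, Peg10 and Peg3 were the most abundant members per kilobase of exon. Peg10 stood at a mean of 88.1 to 118 CPM per kilobase in the 4 groups and Peg3 at 52.8 to 131, against 28.5 to 67.7 for Igf2r, 10.7 to 13.7 for Kcnq1ot1 and 0.219 to 0.636 for Igf2. Peg10 (ENSMUSG00000092035, chr6:4747306-4760517, plus strand) is a retrotransposon-derived gene that the placenta needs. It had 677 and 704 CPM in Mettl14 control, 689 and 693 in the Mettl14 cKO, 585 and 590 in Mettl3 control and 780 and 796 in Mettl3 cKO. Peg10 rose in Mettl3 cKO by 0.42 ± 0.02 on the log2 scale (SE, edgeR, adjusted p = 2.09e-32). In Mettl14 cKO its value was 0.002, with a 95% interval from -0.05 to 0.05 (edgeR, adjusted p = 0.957), and the difference of -0.42 ± 0.03 was called (edgeR, adjusted p = 2.5e-21).

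Peg3 (ENSMUSG00000002265, chr7:6703892-6730431, minus strand), a zinc finger gene, was called in the other knockout. It had 866 and 864 CPM in Mettl14 control, 696 and 709 in the Mettl14 cKO, 1707 and 1668 in Mettl3 control and 1757 and 1746 in Mettl3 cKO. Both Mettl3 groups lay at about the same high level. Peg3 fell by 0.30 ± 0.02 in Mettl14 cKO (SE, edgeR, adjusted p = 1.92e-23). Its value of 0.05 in Mettl3 cKO (edgeR, adjusted p = 0.0841) changed sign and call with the settings, from -0.06 with upper-quartile scaling to 0.16 without a low-count filter (adjusted p from 4.19e-09 to 0.757 over all alternatives). Only 4 of 16 alternatives kept both its sign and its lack of a call. The same value of 0.05 was called higher in limma-voom (adjusted p = 0.000329), and leaving out each library gave 0.07 to 0.10. Between the controls Peg3 was 0.97 ± 0.02 lower in the Mettl14 line (edgeR, adjusted p = 1.57e-76).

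Mest (ENSMUSG00000051855, chr6:30723547-30748465, plus strand), which encodes a hydrolase-like protein of mesoderm, stood out in 1 group. It had 57.1 and 58.6 CPM in Mettl14 control, 85.3 and 82.1 in the Mettl14 cKO, 61.9 and 61.7 in Mettl3 control and 59.6 and 63.8 in Mettl3 cKO. Mest rose by 0.53 ± 0.05 in Mettl14 cKO (SE, edgeR, adjusted p = 1.4e-17) and had a log2 change of -0.005 in Mettl3 cKO (95% interval -0.11 to 0.10; edgeR, adjusted p = 0.966). The difference of 0.54 ± 0.07 was called (edgeR, adjusted p = 2.11e-10). Copg2 overlaps 23.1% of the exonic bases of Mest on the opposite strand, and its own log2 change in Mettl14 cKO was -0.12 (edgeR, adjusted p = 0.182).

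Snrpn (ENSMUSG00000102252, chr7:59982495-60140219, minus strand) encodes a spliceosomal protein of the Prader-Willi region. Its CPM were 29.1 and 28.0 in Mettl14 control, 17.3 and 18.7 in Mettl14 cKO, 31.9 and 29.7 in Mettl3 control and 27.3 and 31.7 in Mettl3 cKO. As counted, Snrpn fell by 0.66 ± 0.09 in Mettl14 cKO (SE, edgeR, adjusted p = 3.1e-11), with a log2 change of -0.06 in Mettl3 cKO (95% interval -0.21 to 0.09; edgeR, adjusted p = 0.625).

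That fall is not seen once reads of the same locus are put together. Gm38393, a coding gene model on the same strand that covers 27.3% of the exonic bases of Snrpn, had 59.9 and 62.1 CPM in Mettl14 control, against 66.6 and 72.2 in Mettl14 cKO. It rose by 0.19 ± 0.05 (edgeR, adjusted p = 0.00203). The 2 genes together had 88.6 and 89.7 CPM in Mettl14 control, 84.0 and 91.0 in the Mettl14 cKO, 113 and 109 in Mettl3 control and 100 and 113 in Mettl3 cKO. Their summed reads gave a log2 change of -0.03 in Mettl14 cKO (adjusted p = 0.713; range over all alternatives 4.86e-14 to 0.713), and the difference between the knockouts of -0.60 became 0.04. Snurf, annotated within the same span, was listed at 0 in all 8 libraries. Whether reads or isoforms moved between these gene models was not tested.

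**Figure D3:**
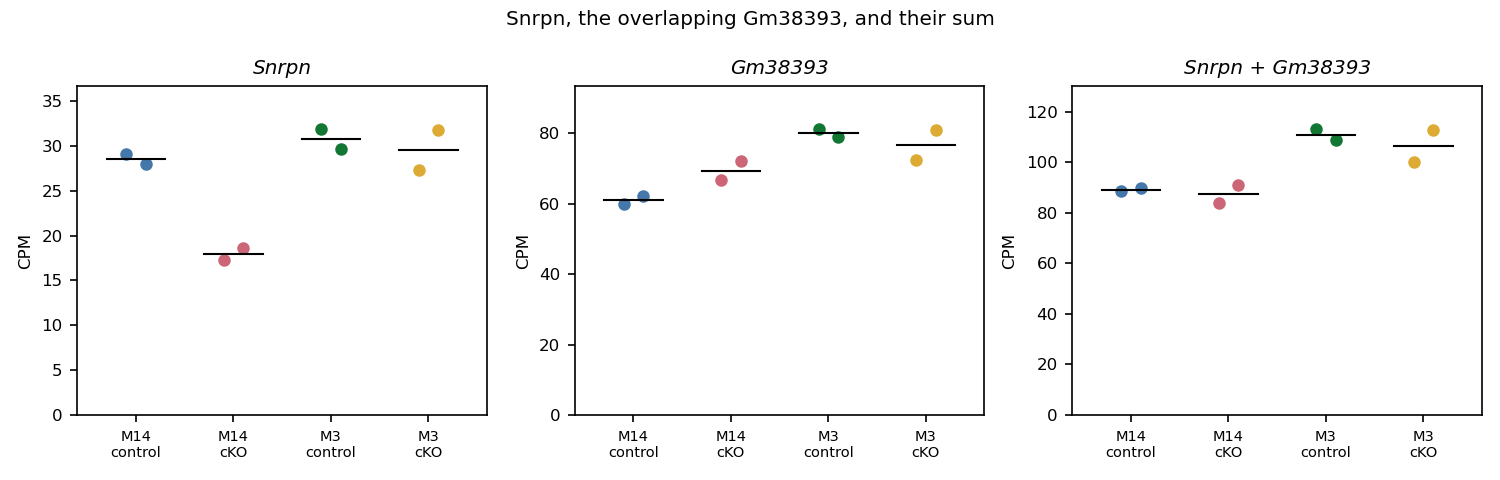
CPM of Snrpn, of the overlapping Gm38393 and of both together in each library (vertical axes from 0); points are libraries and bars the means of 2. Snrpn is lowest in Mettl14 cKO at 17.3 and 18.7, while the sum there, 84.0 and 91.0, spans that of Mettl14 control.

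Counted over the 10 members, all of which passed the low-count filter, 3 rose and 5 fell in Mettl14 cKO, beside 18.0% and 22.4% of the 21782 genes tested. Their median log2 change was -0.14, against 0.03 over all genes. In Mettl3 cKO 5 rose and 0 fell, beside 15.1% and 5.78% of all genes, with a median of 0.27 against 0.03. The number higher in Mettl3 cKO ran from 4 to 7 over the alternatives and from 5 to 7 with 1 library left out. At an unadjusted p under 0.05 edgeR also had 0 members lower in Mettl3 cKO, as did DESeq2 and limma-voom at their adjusted threshold, and upper-quartile scaling called 1 lower, Peg3. That scaling moved the median of all genes by -0.11 in Mettl3 cKO, by 0.16 in the difference and by -0.22 between the controls; the share of calls that were higher went from 72.3% to 31.8%, from 38.4% to 60.6% and from 49.7% to 37.4%. In DESeq2 27.4% of the calls for the difference were higher. The difference between the knockouts was called in 9 members, 2 higher and 7 lower in the Mettl14 change, where 12.7% and 20.5% of all genes were. With the reads of Gm49394 and Gm38393 added, 3 members fell in Mettl14 cKO and the difference was lower in 6.

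By the parent whose copy is known to be expressed, a split made after seeing the values, 2 of the 4 maternally expressed members rose in Mettl14 cKO (Igf2r and Cdkn1c) and 1 fell (H19). Of the 6 paternally expressed ones 1 rose (Mest) and 4 fell (Igf2, Kcnq1ot1, Peg3 and Snrpn). Over all genes 18.0% rose and 22.4% fell there. The falls of Igf2 and Snrpn were no longer called with the reads of Gm49394 and Gm38393 added. In Mettl3 cKO 3 of 4 and 2 of 6 rose and 0 fell, beside 15.1% and 5.78% of all genes. The controls differed in 5 members higher and 2 lower in the Mettl14 line, beside 33.6% and 34.1% of all genes, so a difference there is common.

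**Figure D4:**
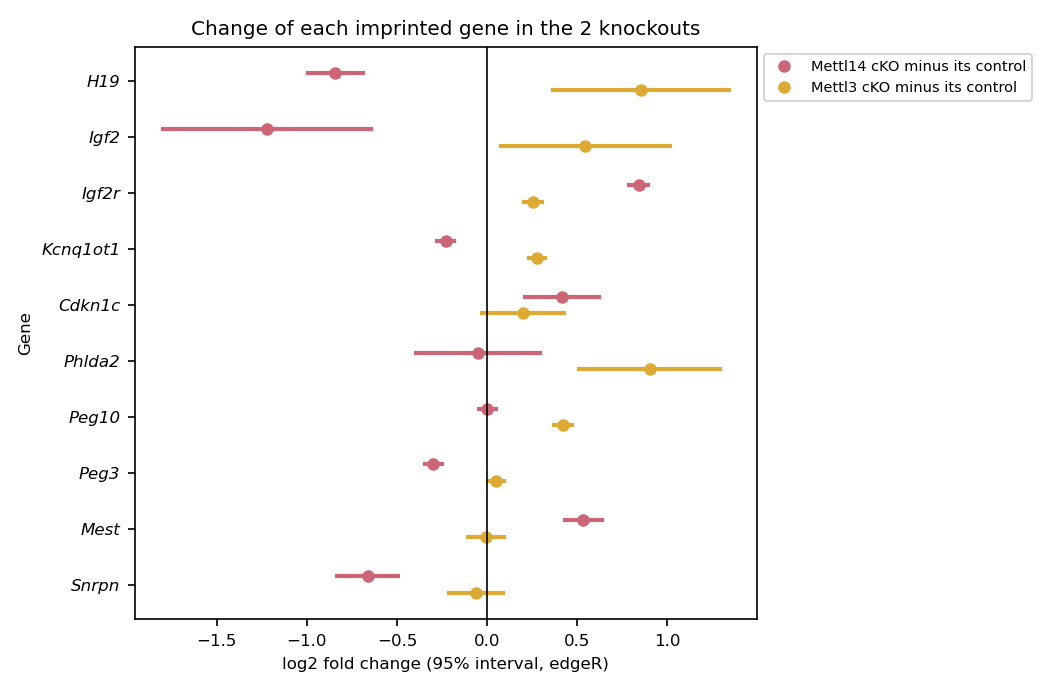
log2 fold change of each member in Mettl14 cKO and Mettl3 cKO against its own control (horizontal axis), with bars for the 95% interval of edgeR's fit. H19, Igf2 and Kcnq1ot1 lie to the left of 0 in Mettl14 cKO and to the right in Mettl3 cKO, where Igf2 was not called, and Igf2r lies to the right in both.

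Of 22 listed neighbours of H19 and Kcnq1ot1 on distal chromosome 7, 19 were tested. In Mettl14 cKO, in which H19 and Kcnq1ot1 themselves fell, 7 rose and 1 fell, beside 18.0% and 22.4% of all genes, with a median log2 change of 0.37 against 0.03. Cd81, a tetraspanin gene, rose by 0.66 ± 0.03 and Dhcr7, the last enzyme of cholesterol synthesis, by 1.32 ± 0.06, while Nap1l4, a histone chaperone gene, fell by 0.41 ± 0.04 (edgeR, adjusted p = 4.79e-44, 1.95e-41 and 1.3e-18). In Mettl3 cKO 5 of the 19 rose and 0 fell (median 0.10), beside 15.1% and 5.78% of all genes, among them Dhcr7 (1.01) and Cd81 (0.24). At an unadjusted p under 0.05 edgeR had 7 of the 19 higher and 2 lower there. Osbpl5, a lipid transfer gene, had a change larger by 0.55 ± 0.16 in Mettl14 cKO (edgeR, adjusted p = 0.00304), with means of 6.26 CPM in Mettl14 control, 10.6 in Mettl14 cKO, 23.0 in Mettl3 control and 26.6 in Mettl3 cKO.

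Over the 68 other imprinted or neighbouring genes tested, 18 rose and 11 fell in Mettl14 cKO (median 0.13), beside 18.0% and 22.4% of all genes. In Mettl3 cKO 13 rose and 7 fell (median 0.01), beside 15.1% and 5.78%. That balance turned with upper-quartile scaling, which had 8 higher and 14 lower. The number lower in Mettl3 cKO was 3 in DESeq2 and 2 without the low-count filter, and it was 4 and 2 without Mettl3 control replicates 1 and 2 and 3 and 4 without Mettl3 cKO replicates 1 and 2. In the Snrpn domain 1 of 8 rose (Ndn, 0.34) and 1 fell (Ube3a, the ubiquitin ligase gene, -0.16) in Mettl14 cKO, and Snhg14, which runs antisense to Ube3a, fell by 0.18 in Mettl3 cKO. Near Peg10, Pon2 rose (0.70) and Ppp1r9a fell (-0.23) in Mettl14 cKO, as did Ppp1r9a in Mettl3 cKO (-0.15). Near Mest, Cep41 fell in Mettl14 cKO (-0.42) and Copg2 in Mettl3 cKO (-0.26). Of the 4 tested neighbours of Igf2r, 0 were called in Mettl14 cKO and 1 was called lower in Mettl3 cKO (median -0.40). Of the 4 genes beside Peg3, 0 were called in either knockout. At an unadjusted p under 0.05 edgeR also had 0 Igf2r neighbours in Mettl14 cKO and 0 genes beside Peg3 in either knockout.

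Among the 22 imprinted genes of other domains, which are part of the 68, 9 rose and 7 fell in Mettl14 cKO, beside 18.0% and 22.4% of all genes. H13, a signal peptide peptidase gene, rose by 0.63 and Impact by 0.36, while the zinc finger gene Zdbf2 fell by 0.44 and the splicing factor gene Zrsr1 by 0.62. In Mettl3 cKO 8 rose and 2 fell, beside 15.1% and 5.78% of all genes. Gnas, the G protein alpha subunit gene, was higher by 0.43 and Zdbf2 by 0.19, and Ddc was lower (-0.50). Zdbf2 was therefore called in opposite directions, as were H19 and Kcnq1ot1, and the difference of its changes was -0.63 ± 0.03 (edgeR, adjusted p = 3.04e-35). Over the whole list of 68 the difference was called higher in 14 and lower in 11, beside 12.7% and 20.5% of all genes. The number higher was 5 in DESeq2, 7 without the low-count filter, 7 without either Mettl14 control library, 6 without Mettl14 cKO replicate 1 and 9 without Mettl3 control replicate 2 or Mettl3 cKO replicate 1; the number lower was 7 with upper-quartile scaling. The controls differed in 18 higher and 37 lower in the Mettl14 line, beside 33.6% and 34.1%.

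**Figure D5:**
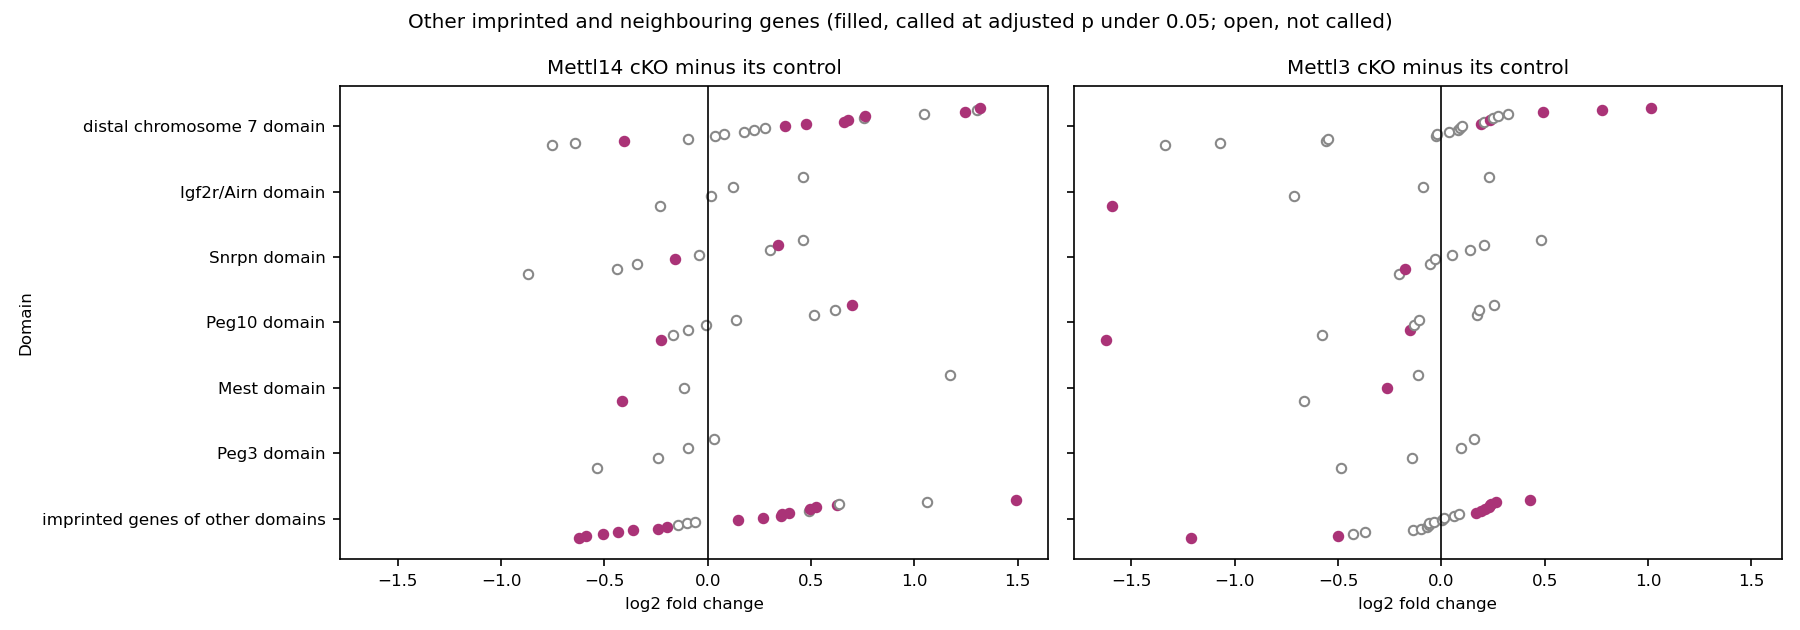
log2 fold change (horizontal axis) of other imprinted and neighbouring genes by domain in Mettl14 cKO (left) and Mettl3 cKO (right); each point is a gene, filled where called at an adjusted p under 0.05. In the distal chromosome 7 domain 7 filled points lie to the right of 0 and 1 to the left in Mettl14 cKO.

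A list of 27 tested genes held genes that keep imprints and silence chromatin, and also the 5-methylcytosine oxidases Tet1, Tet2 and Tet3. Of the 27, 1 rose and 22 fell in Mettl14 cKO, beside 18.0% and 22.4% of all genes. Their median log2 change was -0.41 against 0.03. Hells, a remodelling enzyme needed for DNA methylation, fell by 0.78 ± 0.03 and Tet2, a 5-methylcytosine oxidase, by 0.66 ± 0.03, while Zfp445, a zinc finger protein that guards imprints, rose by 0.19 (edgeR, adjusted p = 3.79e-60, 5.12e-52 and 6.03e-07). Zfp57 and Trim28, named after their values were seen as the best-known guards of imprints, had means of 750.4 and 729.2 CPM in Mettl14 control, against 521.6 and 542.4 in Mettl14 cKO. In Mettl3 cKO 6 rose and 8 fell, beside 15.1% and 5.78% of all genes, with Suz12 (0.23) and Tet3 (0.43) higher and Hells (-0.23) and Dnmt1 (-0.22), the maintenance methyltransferase, lower. Those counts turned on the settings: upper-quartile scaling had 2 higher and 17 lower, no low-count filter 11 higher and 4 lower, and an average log2 CPM of at least 1 had 14 lower. Without either Mettl3 cKO library 5 were lower. Ezh2, the Polycomb methyltransferase, had a difference of -0.99 ± 0.06 between the changes (edgeR, adjusted p = 2.58e-29). Between the controls 23 of 27 were higher in the Mettl14 line and 2 lower, beside 33.6% and 34.1% of all genes, and the stem cell marker sum was higher there too; the part of cell makeup in this list was not tested.

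In the IGF axis 7 of 15 genes rose and 4 fell in Mettl14 cKO, beside 18.0% and 22.4% of all genes. Igfbp7, a secreted IGF-binding protein gene, rose by 1.21 ± 0.08 and Irs2, an adaptor of the IGF1 receptor, by 0.69 ± 0.06 (edgeR, adjusted p = 1.2e-28 and 1.55e-19). The genes for RNA-binding proteins that bind Igf2 mRNA went down, Igf2bp2 by 1.33 ± 0.08 and Igf2bp1 by 0.31 ± 0.02 (edgeR, adjusted p = 2.15e-34 and 1.44e-22). In Mettl3 cKO 7 rose and 1 fell, beside 15.1% and 5.78% of all genes, and the number lower ran from 0 to 3 over the alternatives (0 without Mettl3 control replicate 1 or Mettl3 cKO replicate 2). Insr rose by 0.36, Igf1r, the signalling receptor of IGF1 and IGF2, by 0.26, and Igf2bp3 fell by 0.18. Igfbp7 stood with the fibroblast markers, at a mean of 14.2 CPM in Mettl14 control, 32.7 in Mettl14 cKO, 90.6 in Mettl3 control and 113.1 in Mettl3 cKO, and their part in its change was not tested.

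Of 14 CDK inhibitors and G1 cyclins, the group to which Cdkn1c belongs by function, 6 rose and 6 fell in Mettl14 cKO, beside 18.0% and 22.4% of all genes. Cdkn1a, which encodes the inhibitor p21, rose by 0.49 and Ccnd2 by 0.68, while Ccne1 fell by 0.81 and Ccnd3 by 0.54. In Mettl3 cKO 6 rose and 1 fell, beside 15.1% and 5.78% of all genes, with Ccnd2 (0.35) and Cdkn1a (0.28) higher and Ccnd3 (-0.23) lower. Cdkn1a and Ccnd2 were thus called higher in both knockouts, and Ccnd3 lower in both.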

How the data were processed

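Raw counts of reads per gene were deposited, 1 table per library, made with CASAVA, Trimmomatic 0.38, HISAT2 2.1.0 and HTSeq on mm10, per the submitters' processing notes. Which annotation release and strand setting HTSeq used is not stated in those notes. Without them, reads of overlapping genes on opposite strands cannot be told apart with certainty, and reads shared by gene models of 1 strand may be dropped or split. Identifiers without version were matched to GENCODE M21 (mm10), which named 54409 of 54446 lines and left 37 unnamed; 0 lines named no gene.

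All 8 libraries were fitted together in edgeR 4.0.16 (R 4.3.3) with 4 group means, TMM scaling, a low-count filter at a minimum count of 10, robust quasi-likelihood fits and 4 residual degrees of freedom (common dispersion 0.000571). The call threshold was an adjusted p of 0.05 (Benjamini-Hochberg, over all 21782 genes tested). The tests were each cKO against its own control, the difference of the 2 changes, and control against control; the code was tested on simulated data. CPM were computed on the TMM-scaled sizes, and 95% intervals come from the fit. Libraries of a group correlated at r of 0.989 to 0.990 in log2 CPM and differed by more than sampling noise (chi-square divided by its degrees of freedom, 1.41 to 1.97), and all were kept as separate samples.

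The members and lists were chosen with earlier results of these data known. Beside the members, named genes are those overlapping a member with at least 1 CPM in a group, Mettl3 and Mettl14, up to 2 called genes per list, contrast and direction with the smallest p (average log2 CPM 1 or more), and the 4 genes most correlated with H19 and with Kcnq1ot1. Lists covered 7 imprinted domains or groups, imprint maintenance, the IGF axis, CDK inhibitors and G1 cyclins, and markers of 4 cell types. Alternatives were other scalings (RLE, upper quartile), filters, DESeq2 1.42.0, limma 3.58.1 (voom), fits of only the groups compared, a replicate block, leaving out each library and, added after seeing the data, joining the reads of Gm49394 with Igf2 and of Gm38393 with Snrpn.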

Additional observations from a re-analysis of the deposited data

Results flagged for a closer look

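In 9 of the 10 members the log2 change in Mettl14 cKO differed from that in Mettl3 cKO by edgeR's test of the difference, where 12.7% of all genes were called higher and 20.5% lower. The Mettl14 change was lower by 1.70 in H19 (log2 difference -1.70), and the difference was -1.77 in Igf2, -0.51 in Kcnq1ot1, -0.96 in Phlda2, -0.42 in Peg10, -0.35 in Peg3 and -0.60 in Snrpn. It was 0.59 in Igf2r and 0.54 in Mest. The value for Igf2 became -0.98 with the reads of Gm49394 added, that for Snrpn depends on how reads are shared with Gm38393, and that for Phlda2 on 1 Mettl14 control library, as given with those genes. The 2 lines also differ before any knockout, so a difference between METTL14 and METTL3 and a difference between the lines cannot be told apart.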

How the results depend on the processing

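Of 638 values of single members under the alternatives, 590 kept their direction and side of the threshold, 19 gained a call, 7 lost one and 22 changed sign. H19 in Mettl14 cKO, and Igf2r and Kcnq1ot1 in every comparison, kept their calls throughout. No alternative scaled the libraries by their total counts alone. The sign changes were of values near 0 that were not called at first, apart from the Snrpn difference. With RLE scaling and with DESeq2, Peg10 in Mettl14 cKO was -0.027 and -0.027. With upper-quartile scaling, Peg3 in Mettl3 cKO was -0.062, 1 member was lower in Mettl3 cKO and 4 were lower between the controls; genes called in Mettl3 cKO numbered 1293 higher and 2771 lower, and for the difference 4287 and 2788. Without the low-count filter Mest and Snrpn were 0.10 and 0.045 in Mettl3 cKO and 0.038 and 0.025 between the controls, and 5814 genes were higher and 559 lower in Mettl3 cKO. At an average log2 CPM of at least 1, Phlda2 in Mettl14 cKO was 0.012, Peg3 in Mettl3 cKO -0.024, 4 members were lower between the controls and 1894 genes were higher in Mettl3 cKO. DESeq2 called 2470 genes higher in Mettl14 cKO, 1603 higher and 535 lower in Mettl3 cKO, and 1256 higher for the difference. With overlapping genes added, 3 members fell in Mettl14 cKO and the Snrpn difference was 0.037. The cause of these shifts was not tested. Leaving out each library in turn gave -0.30 to 0.24 for Phlda2 and -0.039 to 0.034 for Peg10 in Mettl14 cKO, and -0.012 to 0.084 for Mest and -0.13 to 0.082 for Snrpn in Mettl3 cKO. It gave 599 to 1070 genes lower in Mettl3 cKO, the fewest without Mettl3 cKO replicate 2, against 619 without replicate 1, and 678 and 768 without Mettl3 control replicates 1 and 2; these fits also tested more genes.

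The replicate numbers were not shown to pair the libraries: deviations of same-numbered libraries correlated at -0.03 between the Mettl14 groups, 0.07 between the Mettl3 groups and 0.11 between the 2 controls. With a replicate block 3937 genes were higher and 4898 lower in Mettl14 cKO, and 3354 and 1266 in Mettl3 cKO, and no member's call changed. Depth limits Igf2 (19 to 83 counts), H19 in the Mettl3 line (23 to 45) and Phlda2 (53 to 123).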
